A study of Mus musculus with 12 samples.

Results

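The genes described here are the nuclear genes for the subunits of the oxidative phosphorylation complexes, chosen by symbol among protein-coding genes. Assembly factors with Ndufaf or Sdhaf symbols, pseudogene symbols and predicted genes were left out. Of 86 annotated genes that met this rule, 85 were among the 39179 gene IDs measured. They comprised 36 genes of complex I (NADH dehydrogenase), 4 of complex II (succinate dehydrogenase), 8 of complex III (cytochrome c reductase), 20 of complex IV (cytochrome c oxidase) and 17 of complex V. Ndufa4 and Ndufa4l2 were placed with complex IV, the complex in which the NDUFA4 protein is known to reside. After a filter on low counts 78 of the 85 were tested, and the 7 that were not are described below with their isoforms.

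Oxidative phosphorylation is carried out by protein complexes of the inner mitochondrial membrane. Complexes I to IV pass electrons on to oxygen and, except for complex II, pump protons; complex V, the ATP synthase, uses the proton gradient to make ATP. Most subunits are encoded in the nucleus and imported, whereas a small set, none of it in complex II, is encoded by mitochondrial DNA, so assembly draws on both genomes. Activated CD4 T cells raise both glycolysis and respiration, and effector lineages are known to differ in how they use them.

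The cells were mouse CD4 T cells with the OT-II receptor, a transgenic T cell receptor for an ovalbumin peptide, on a C57BL/6 background. Cells of OT-II x NKG2D-/- mice (KO), which lack the activating receptor encoded by Klrk1, and OT-II cells (WT) were naive at the start, came from spleen and lymph nodes, and were cultured together with antigen-presenting cells, the peptide OVA323-339 and an antibody to CD28. Th17 cultures received IL-1b, IL-6 and IL-23 with antibodies to IFNg and IL-4, and IL-12 after the second triggering; Th1 cultures received IL-2 and IL-12 with an antibody to IL-4. Cells were polarized on days 0 and 5 and harvested on day 8. The 4 groups were Th17 KO, sorted as Thy1.1+; Th17 WT, sorted as Thy1.2+ and NKG2D+; Th1 KO, sorted as Thy1.1+; and Th1 WT, sorted as Thy1.2+ and NKG2D+. Each had 3 samples of bulk poly-A RNA. Loss of NKG2D, the congenic Thy1 marker and the NKG2D+ gate therefore differ together and cannot be told apart. The labels do not say whether the samples of a group came from separate animals or cultures, so the p-values rest on a spread between samples that may be technical.

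Total counts were 9108203 to 12688637 in 9 libraries and 1647232 to 2731909 in the other 3 (Th17 KO 2, Th17 WT 2 and Th17 WT 3), called shallow here. In these 3 a single ID, ENSMUSG00000045999, took 18.3 to 51.0% of the counts, against at most 0.00831% elsewhere. Klrk1 was lower in KO by a log2 fold change of -5.75 in Th17 and -4.94 in Th1, as the labels have it. The sum of 5 Th17 markers was 122 to 129.96 CPM (counts relative to the normalised library total) in Th17 KO, 61.3 to 74.5 in Th17 WT, 1.23 to 3.15 in Th1 KO and 0.580 to 1.04 in Th1 WT. The sum of 4 Th1 markers was 658 to 719.5, 888 to 1054, 1001 to 1226 and 1167 to 1445 CPM in the same order. Its members did not move together: in KO and WT, Ifng was lower in Th17, at a log2 fold change of -3.43 and -1.99, whereas Il12rb2 was higher, at 0.49 and 0.58, and so was Cxcr3, at 3.75 and 4.29. The 8 CD4 T cell markers summed to 9519 CPM or more in every library. Markers of antigen-presenting cells moved with the culture, every Th17 sum lying above every Th1 sum of the same genotype. The 5 B cell markers summed to 2.10 to 4.79 CPM in Th17 KO, 0.763 to 1.58 in Th17 WT, 0.278 to 0.969 in Th1 KO and 0.208 to 0.313 in Th1 WT. The 7 dendritic cell and macrophage markers, with Clec9a at 0, summed to 4.20 to 4.52 CPM in Th17 KO, 3.11 to 5.14 in Th17 WT, 1.81 to 2.99 in Th1 KO and 1.41 to 1.67 in Th1 WT. The MHC class II transcripts H2-Aa, H2-Ab1 and Cd74 summed to 82.0 to 90.8 CPM in Th17 KO, 61.3 to 80.5 in Th17 WT, 13.2 to 17.1 in Th1 KO and 14.8 to 16.8 in Th1 WT. The part of all these markers in the results below was not tested.

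Between the Th17 and Th1 cultures, subunit genes were called in both directions, lower more often than higher. The total share called was below that of all genes. In Th17 KO against Th1 KO, 10 subunit genes (12.8%) were higher and 25 (32.1%) lower of 78 tested. The test was edgeR's quasi-likelihood test at an adjusted p of 0.05. The background over all 12189 genes was 26.9% higher and 26.7% lower. In Th17 WT against Th1 WT, 10 (12.8%) were higher and 24 (30.8%) lower, against a background of 23.5% higher and 23.6% lower. The share of members called in either direction was 44.9% in KO and 43.6% in WT, against 53.6% of all genes in KO and 47.1% in WT. In KO the median log2 fold change was -0.12 for the members and 0.00 for all genes, and in WT it was -0.15 and -0.01. Under upper-quartile scaling the KO split was 14 higher and 22 lower. Without the 3 shallow libraries the lower calls in WT numbered 15. In bulk RNA a change in the mix of cells and a change in RNA per cell cannot be told apart.

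**Figure D1:**
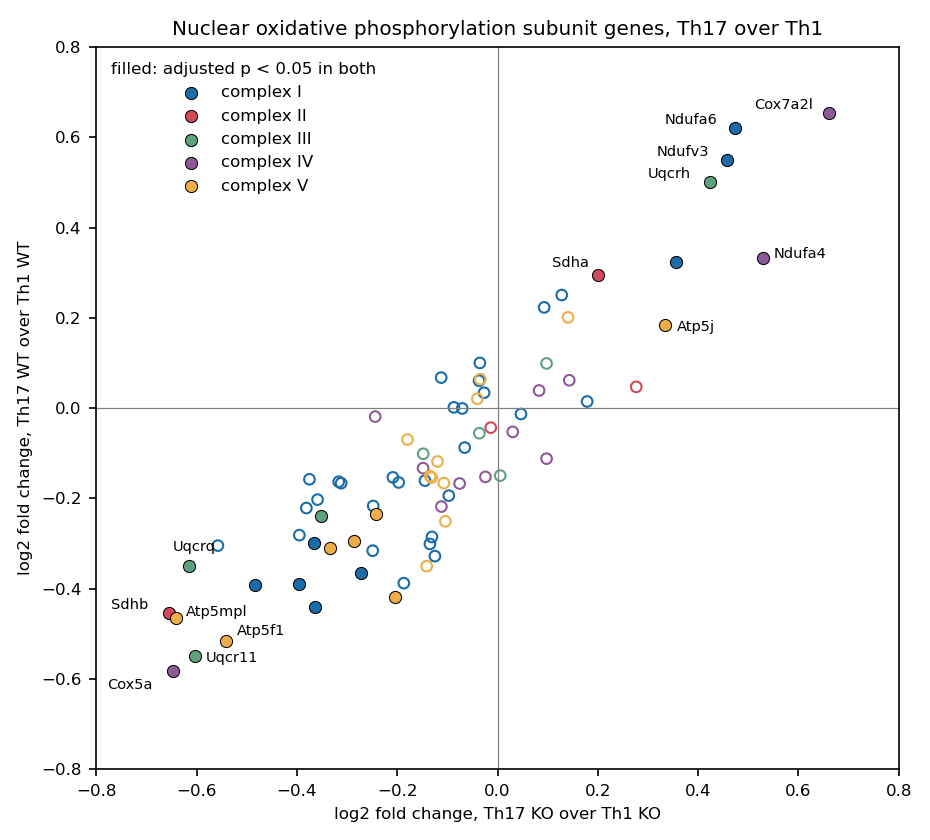
Log2 fold change of each subunit gene in Th17 KO over Th1 KO (horizontal) and in Th17 WT over Th1 WT (vertical), coloured by complex, with filled points past an adjusted p of 0.05 in both. Cox7a2l lies highest at 0.66 and 0.65 and Cox5a lowest on the vertical axis; Cox6b2, at 2.39 and 1.27, is not shown.

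The calls of the KO and WT comparisons overlapped. Of the 10 higher calls in each genotype 8 were shared (80.0% of either list), and 16 lower calls were shared, which is 64.0% of the KO list and 66.7% of the WT list; 0 genes were called in opposite directions. The overlap of calls over all genes was not counted, so these shares are not shown to be particular to the subunit genes. The signs agreed for 67 of 78 members (85.9%, against 84.7% of all genes). Pearson's r between the KO and WT fold changes was 0.905 across the 78 members and 0.910 across all genes. These comparisons share no samples but one model, and genes are not independent replicates. Of the 24 shared calls, 15 held in both genotypes under every alternative tried, and 9 were lost under at least 1: Atp5j, Ndufa4 and Sdha among the higher genes, and Atp5d, Atp5k, Atp5o, Ndufb6, Ndufb7 and Uqcrq among the lower.

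Sample ranges were compared as well. All Th17 KO samples lay above all Th1 KO samples for 10 of 78 members and below them for 30, against 27.1% and 28.6% of all genes. All Th17 WT samples lay above all Th1 WT samples for 11 members and below them for 35, against 24.6% and 27.5% of all genes. With 3 samples in each group an exact two-sided permutation test of a single value cannot give a p under 0.1, so ranges are given as a description.

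Below, a change between cultures is given as Th17 KO over Th1 KO (in KO) and Th17 WT over Th1 WT (in WT). In complex I, which takes electrons from NADH, 3 genes were higher and 13 lower of 36 in KO, and 5 were higher and 9 lower in WT. The share of complex I genes called was 44.4% in KO and 38.9% in WT, below the 53.6% and 47.1% of all genes. Among those higher in both were Ndufa6, an accessory subunit, and Ndufv3, an accessory subunit of the NADH-binding module. Lower in both were Ndufs1 and Ndufs8, core subunits that carry iron-sulfur clusters, and the accessory subunits Ndufb6, Ndufb7 and Ndufb11. Ndufa6 (chr15:82350140-82354322, minus strand; coordinates of genes are those of GENCODE on GRCm38) was measured at 40.4, 51.5 and 39.6 CPM in Th17 KO and 43.7, 43.5 and 49.8 CPM in Th17 WT. In Th1, Ndufa6 was at 32.2, 30.3 and 26.2 CPM in KO and 27.9, 28.7 and 30.1 CPM in WT. Every Th17 sample was above every Th1 sample, with a log2 fold change of 0.47 ± 0.09 (SE, adjusted p = 0.000102) in KO and 0.62 ± 0.10 (SE, adjusted p = 1.06e-05) in WT.

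Ndufv3 was measured at 95.5, 63 and 75.1 CPM in Th17 KO and 92.4, 78.3 and 75.8 CPM in Th17 WT. In Th1, Ndufv3 was at 66.5, 58.9 and 55 CPM in KO and 62, 55.9 and 57 CPM in WT. In WT its ranges were apart, whereas in KO the lowest Th17 sample, a shallow library, fell inside the Th1 range. The log2 fold change was 0.46 ± 0.11 (SE, adjusted p = 0.00184) in KO, falling to 0.28 without Th17 KO 1, and 0.55 ± 0.11 (SE, adjusted p = 0.00077) in WT.

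Ndufs1 was measured at 52.4, 46.2 and 55.3 CPM in Th17 KO and 55.8, 49 and 55 CPM in Th17 WT. In Th1, Ndufs1 was at 76.8, 73 and 72.8 CPM in KO and 68.3, 71.8 and 71.7 CPM in WT. All Th17 samples were below all Th1 samples, with a log2 fold change of -0.48 ± 0.07 (SE, adjusted p = 2.38e-06) in KO and -0.39 ± 0.08 (SE, adjusted p = 0.000134) in WT. Ndufs8 gave -0.40 in KO and -0.39 in WT, Ndufb11 gave -0.36 and -0.44, and Ndufb7 gave -0.37 and -0.30, with separate ranges in all of them. The Ndufb7 call in WT was lost without the shallow libraries (-0.19), and the value was -0.48 without Th17 WT 1. Ndufb6, at -0.27 and -0.37, shares 27.8% of its read-length windows with Smim27 and is uncertain; its WT call was lost without the shallow libraries and its KO call without Th17 KO 3, under DESeq2 and under upper-quartile scaling.

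Calls of complex I made in 1 genotype only were Ndufa5, Ndufa11, Ndufa12, Ndufb3, Ndufs4, Ndufs6, Ndufs7 and Ndufv1, all lower in KO, and Ndufa1 and Ndufv2 (higher) and Ndufa9, Ndufa10, Ndufb4 and Ndufb10 (lower) in WT. By edgeR, 0 of 78 members passed the interaction test of the difference between genotypes, with 1 at an unadjusted p under 0.05, so these lists are not shown to differ. Several rested on 1 library: Ndufb3, at -0.40 in KO, lost its call without Th17 KO 1, and Ndufs7, at -0.36, was -0.22 and lost its call without Th17 KO 3. Ndufa9, at -0.39 in WT, kept its call without Th17 WT 1, at -0.61. Ndufa1, Ndufa10, Ndufb4, Ndufs4 and Ndufs6 also lost their call without at least 1 single library, and Ndufb10 without the 3 shallow libraries.

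Complex II links the citrate cycle to the electron transport chain and is the only complex built from nuclear genes alone. Its 2 catalytic subunits moved in opposite directions: Sdha, the flavoprotein that oxidises succinate, was higher in Th17 and Sdhb, which carries the iron-sulfur clusters, was lower. Sdhb (chr4:140961203-140979193, plus strand) was measured at 67.7, 65.1 and 66.9 CPM in Th17 KO and 75.4, 67.6 and 85.1 CPM in Th17 WT. In Th1, Sdhb was at 107, 103 and 107 CPM in KO and 97.2, 107 and 103 CPM in WT. The Th17 and Th1 ranges were apart in both genotypes, with a log2 fold change of -0.65 ± 0.07 (SE, adjusted p = 1.5e-08) in KO and -0.45 ± 0.07 (SE, adjusted p = 1.29e-05) in WT.

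Sdha (chr13:74322254-74350280, minus strand) was measured at 127, 107 and 135 CPM in Th17 KO and 124, 133 and 126 CPM in Th17 WT. In Th1, Sdha was at 104, 111 and 116 CPM in KO and 99.2, 103 and 108 CPM in WT. In WT all Th17 samples were higher, whereas in KO a shallow Th17 library fell within the Th1 range. The log2 fold change was 0.20 ± 0.07 (SE, adjusted p = 0.0187) in KO, a call lost without Th1 KO 1, without Th17 KO 3 and with no filter on low counts, and 0.29 ± 0.07 (SE, adjusted p = 0.00182) in WT. Of the membrane anchors, Sdhc was higher in Th17 KO than in Th1 KO, at 0.28 ± 0.08 (SE, adjusted p = 0.00746), and gave 0.05 ± 0.09 (SE, adjusted p = 0.716) in WT. The other anchor, Sdhd, gave -0.01 ± 0.07 (SE, adjusted p = 0.886) in KO and -0.04 ± 0.07 (SE, adjusted p = 0.987) in WT.

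Promoter windows of 300 bases (250 before to 50 after the start) from RefSeq on GRCm38.p6 were found for 67 of the 85 members. Shown are the windows of Sdha and Sdhb, which moved in opposite directions within 1 complex, and of Cox5a, a lower gene of complex IV whose values follow. Sequences run 5′ to 3′ on the strand of the gene, and capitals mark matches to any of 6 motifs, searched on both strands: NRF1 (GCATGCGC), ETS (CCGGAAG), YY1 (AAGATGGC), SP1 (GGGCGG), the CCAAT box (CCAAT) and ERR (AAGGTCA). NRF1, the ETS family factor GABP, YY1 and ERR are known activators of nuclear genes for mitochondrial proteins. Sdha is the window chr13:74350191-74350490 on the minus strand, Sdhb is chr4:140961021-140961320 on the plus strand, and Cox5a is chr9:57520982-57521281 on the plus strand.
Sdha: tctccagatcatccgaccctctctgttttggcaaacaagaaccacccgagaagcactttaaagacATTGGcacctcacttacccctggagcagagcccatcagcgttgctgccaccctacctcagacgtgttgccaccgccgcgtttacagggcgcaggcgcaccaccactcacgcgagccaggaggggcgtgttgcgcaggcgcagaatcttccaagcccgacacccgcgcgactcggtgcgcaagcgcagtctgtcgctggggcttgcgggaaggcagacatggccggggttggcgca
Sdhb: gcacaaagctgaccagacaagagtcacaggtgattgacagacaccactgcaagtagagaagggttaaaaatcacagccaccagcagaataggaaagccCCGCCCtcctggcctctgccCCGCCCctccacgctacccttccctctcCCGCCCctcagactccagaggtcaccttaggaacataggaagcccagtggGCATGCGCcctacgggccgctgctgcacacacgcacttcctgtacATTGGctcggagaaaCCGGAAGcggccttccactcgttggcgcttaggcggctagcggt
Cox5a: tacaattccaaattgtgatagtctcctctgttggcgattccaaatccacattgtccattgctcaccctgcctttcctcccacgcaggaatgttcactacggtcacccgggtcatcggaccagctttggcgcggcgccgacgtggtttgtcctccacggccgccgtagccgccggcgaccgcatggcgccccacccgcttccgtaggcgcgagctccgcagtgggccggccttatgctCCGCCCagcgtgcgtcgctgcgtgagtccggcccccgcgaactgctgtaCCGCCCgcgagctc

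The RefSeq starts lay 39, 67 and 43 bases from those of GENCODE for Sdha, Sdhb and Cox5a. Counted from the RefSeq start as position 1, Sdhb held NRF1 at -54 and ETS at 7 on the gene's strand, and on the opposite strand SP1 at -152, -132 and -104 and a CCAAT box at -9. Sdha held a CCAAT box at -185 on the opposite strand, and Cox5a held SP1 at -13 and 37 on the opposite strand. Over the 67 member windows, NRF1 was found in 14.9%, ETS in 22.4%, YY1 in 11.9%, SP1 in 40.3%, the CCAAT box in 43.3% and ERR in 11.9%. Over all 18166 windows these were 3.63%, 11.9%, 3.25%, 46.7%, 38.5% and 4.04%. Among genes higher in Th17 in both genotypes the windows that held NRF1, ETS, YY1, SP1, the CCAAT box and ERR were 1, 1, 0, 4, 4 and 0 of 7. Among those lower in both they were 4, 6, 0, 3, 4 and 1 of 12. A match describes the letters only, and binding was not measured. The NRF1 letters searched are only part of a longer consensus. A window without them, such as that of Sdha or Cox5a, may therefore still hold a variant of the site.

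Complex III passes electrons from ubiquinol to cytochrome c, and 1 of its 8 genes was higher and 3 lower in either genotype. The share of its genes called was below the 53.6% of all genes in KO and above the 47.1% in WT. The higher gene was Uqcrh, the hinge protein that binds near cytochrome c1. It was measured at 128, 117 and 134 CPM in Th17 KO and 137, 135 and 133 CPM in Th17 WT. In Th1, Uqcrh was at 101, 93.3 and 92.9 CPM in KO and 97.4, 97.4 and 92 CPM in WT. Every Th17 sample was above every Th1 sample, and the log2 fold change was 0.42 ± 0.06 (SE, adjusted p = 4.43e-06) in KO and 0.50 ± 0.07 (SE, adjusted p = 8.14e-07) in WT.

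The lower genes were Uqcr11 and Uqcrq, small accessory subunits, and Uqcrc1, a core protein on the matrix side. Uqcr11 was measured at 29.6, 27.3 and 29.1 CPM in Th17 KO and 28, 28.9 and 19.7 CPM in Th17 WT. In Th1, Uqcr11 was at 46.9, 43.4 and 42.9 CPM in KO and 40, 41.9 and 38.2 CPM in WT. The ranges did not overlap between cultures, and the log2 fold change was -0.60 ± 0.09 (SE, adjusted p = 1.69e-06) in KO and -0.55 ± 0.10 (SE, adjusted p = 4.04e-05) in WT. Uqcrc1 gave -0.35 ± 0.06 (SE, adjusted p = 4.31e-05) in KO and -0.24 ± 0.07 (SE, adjusted p = 0.00467) in WT. Uqcrq gave -0.62 ± 0.10 (SE, adjusted p = 1.64e-05) in KO and -0.35 ± 0.11 (SE, adjusted p = 0.0125) in WT, where the call was lost without Th17 WT 2 and without the 3 shallow libraries.

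Complex IV hands electrons to oxygen. Among members called with a mean of at least 5 CPM, Cox7a2l, placed in this complex by its symbol, had the highest fold change in both genotypes. Cox7a2l (chr17:83501918-83517330, minus strand) was measured at 206, 199.6 and 194 CPM in Th17 KO and 197, 192 and 229 CPM in Th17 WT. In Th1, Cox7a2l was at 124, 127 and 128 CPM in KO and 132, 134 and 121 CPM in WT. The lowest Th17 sample was well above the highest Th1 sample, and the log2 fold change was 0.66 ± 0.07 (SE, adjusted p = 4.4e-09) in KO and 0.65 ± 0.07 (SE, adjusted p = 1.25e-08) in WT. Windows of read length from this gene also occur in the predicted gene Gm6969 for 10.4% of its sequence, so part of its counts may be shared.

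Cox5a, a nuclear subunit on the matrix side of complex IV, went the other way. Cox5a (chr9:57521274-57532426, plus strand) was measured at 82.8, 74.6 and 88.4 CPM in Th17 KO and 97.7, 86.2 and 94.5 CPM in Th17 WT. In Th1, Cox5a was at 136, 128 and 131 CPM in KO and 135, 132 and 153 CPM in WT. All Th17 samples were below all Th1 samples, and the log2 fold change was -0.65 ± 0.07 (SE, adjusted p = 3.94e-08) in KO and -0.58 ± 0.08 (SE, adjusted p = 5.63e-07) in WT. Ndufa4 was measured at 34.3, 24.2 and 40.1 CPM in Th17 KO and 28, 27.7 and 28 CPM in Th17 WT. In Th1, Ndufa4 was at 27.5, 22.3 and 25.3 CPM in KO and 21.7, 23 and 21.8 CPM in WT. Its log2 fold change was 0.53 ± 0.10 (SE, adjusted p = 0.000104) in KO, where the shallow Th17 library lay inside the Th1 range, and 0.33 ± 0.12 (SE, adjusted p = 0.0234) in WT, a call lost under DESeq2 and without Th17 WT 1, Th1 WT 1 or Th1 WT 3. Of the 13 tested genes of complex IV, 3 were higher and 2 lower in KO, and 2 were higher and 3 lower in WT. The share called was 38.5% in both, against 53.6% of all genes in KO and 47.1% in WT. The calls in 1 genotype were Cox6b2 (higher, on the few counts given below) and Cox6a1 (lower, -0.24 ± 0.07 (SE, adjusted p = 0.00351)) in KO, and Cox7a2 (-0.22) and Cox8a (-0.17), both lower, in WT. Cox7a2 was -0.36 without Th17 WT 1, and it lost its call without Th17 WT 2, Th17 WT 3 or Th1 WT 2 and, at -0.10, without the 3 shallow libraries. Cox8a lost its call, at the threshold, without any of 7 single libraries or the 3 shallow ones.

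**Figure D2:**
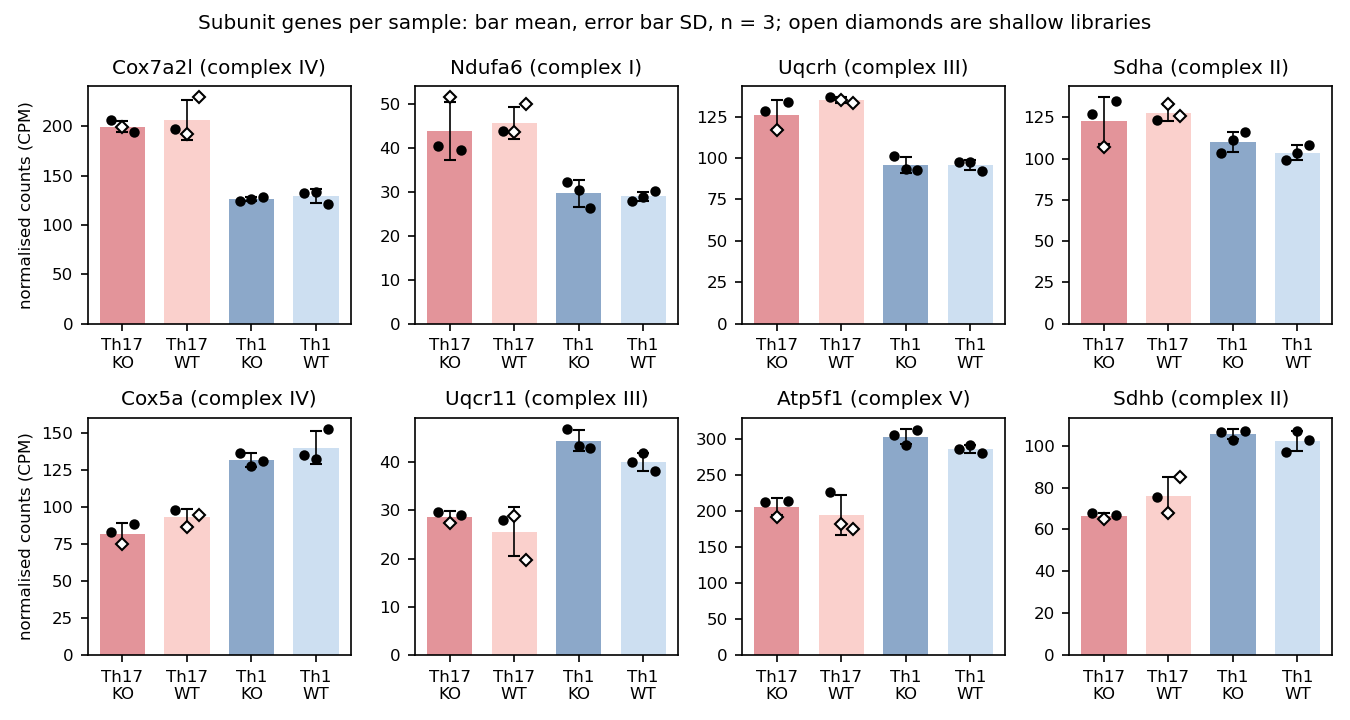
TMM-normalised CPM of 8 subunit genes, with groups from left to right as Th17 KO, Th17 WT, Th1 KO and Th1 WT; bars show the mean, lines the SD over 3 samples, points the samples, and open diamonds the shallow libraries. Cox7a2l, Ndufa6 and Uqcrh are higher in every Th17 sample than in any Th1 sample, and Cox5a, Uqcr11, Atp5f1 and Sdhb are lower.

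Complex V had the largest share of lower calls in WT, 8 of 17 with 1 higher, and 6 of 17 with 1 higher in KO. The lower share was 47.1% in WT against 23.6% of all genes, and 35.3% in KO against 26.7%. In KO, complexes I (36.1%) and III (37.5%) had larger lower shares. The share called in either direction was 52.9% in WT and 41.2% in KO, against 47.1% and 53.6% of all genes. Atp5f1, the b subunit of the stator stalk, was measured at 212, 192 and 213 CPM in Th17 KO and 227, 183 and 175 CPM in Th17 WT. In Th1, Atp5f1 was at 306, 292 and 313 CPM in KO and 287, 291 and 281 CPM in WT. Every Th17 sample was lower than every Th1 sample, and the log2 fold change was -0.54 ± 0.07 (SE, adjusted p = 6.56e-07) in KO and -0.52 ± 0.07 (SE, adjusted p = 2.45e-06) in WT, the WT value being -0.33 without the shallow libraries. It shares 10.1% of its windows with other genes.

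Atp5mpl, a small subunit of the membrane part, was measured at 29.8, 23.1 and 30.5 CPM in Th17 KO and 36.7, 22.1 and 23.9 CPM in Th17 WT. In Th1, Atp5mpl was at 49, 45.8 and 43.9 CPM in KO and 43.4, 44.9 and 42.5 CPM in WT. The Th17 samples were again lower throughout, at -0.64 ± 0.11 (SE, adjusted p = 2.75e-05) in KO and -0.47 ± 0.12 (SE, adjusted p = 0.00229) in WT, where the value was -0.95 without Th17 WT 1 and -0.25 without the shallow libraries. Atp5g1, a gene for the c subunit of the rotor ring, gave -0.33 ± 0.07 (SE, adjusted p = 0.000472) in KO and -0.31 ± 0.08 (SE, adjusted p = 0.00289) in WT. Atp5d, the delta subunit of the central stalk, gave -0.24 and -0.23, Atp5k, the e subunit, gave -0.20 and -0.42, and Atp5o, the stator protein OSCP, gave -0.29 and -0.29, in KO and in WT. The WT calls of Atp5d and Atp5o were lost without the shallow libraries, and the KO call of Atp5k without Th17 KO 1, Th17 KO 3, Th1 KO 1, Th1 KO 2 or Th1 WT 2, under DESeq2 and under upper-quartile scaling. Atp5o overlaps other genes over 47.9% of its exon bases and its counts are uncertain.

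Atp5j, coupling factor 6 of the stator, was the higher gene of complex V in both genotypes. It was measured at 73.3, 72.5 and 69.7 CPM in Th17 KO and 66.7, 67.2 and 65.4 CPM in Th17 WT. In Th1, Atp5j was at 57.8, 60 and 52.6 CPM in KO and 55.5, 58.7 and 61.8 CPM in WT. Its ranges were apart in both, with 0.33 ± 0.07 (SE, adjusted p = 0.000276) in KO and 0.18 ± 0.08 (SE, adjusted p = 0.0487) in WT; the WT call was lost without most single libraries. Atp5b, the catalytic beta subunit, and Atp5g3, another c subunit gene, were called lower in WT only, at -0.15 ± 0.06 (SE, adjusted p = 0.046) and -0.25 ± 0.08 (SE, adjusted p = 0.00893), and both calls were lost without the shallow libraries. Atp5b was also lost without Th17 WT 2, Th17 WT 3 or any Th1 WT library, and Atp5g3 was -0.38 without Th17 WT 1.

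Summed over genes, complex V was at 2588, 2312 and 2511 CPM in Th17 KO, 2538, 2282 and 2219 CPM in Th17 WT, 2900.4, 2779 and 2769.6 CPM in Th1 KO and 2678, 2729 and 2679 CPM in Th1 WT. All Th17 sums lay below all Th1 sums, by a log2 ratio of -0.19 in KO and -0.20 in WT. Under upper-quartile scaling the ratio was -0.13 in both and the WT ranges overlapped. The shallow libraries gave the lowest complex V sums of each Th17 group, and the deep Th17 libraries were at 2511 to 2588 CPM. The sum over all nuclear subunit genes had a log2 ratio of -0.11 in both genotypes, with overlapping ranges under upper-quartile scaling. Here too the shallow libraries were the lowest, at 5774 CPM in Th17 KO and 5660 and 5708 CPM in Th17 WT. The deep libraries were at 6218 and 6042 CPM in Th17 KO and 6177 CPM in Th17 WT. The means were 6486 CPM in Th1 KO and 6328 CPM in Th1 WT. The sum over the 13 subunits encoded by mitochondrial DNA ran the other way, at 18377, 22099 and 19615 CPM in Th17 KO, 17896, 20039 and 21787 CPM in Th17 WT, 17061, 16457 and 15791 CPM in Th1 KO and 15794, 15878 and 15552 CPM in Th1 WT. The gene mt-Co1 alone gave a mean of 8659 CPM in Th17 KO, where the mean sum was 20031 CPM, so the sum does not speak for each gene. The Th17 sums were all above the Th1 sums, at log2 ratios of 0.29 in KO and 0.34 in WT, and the shallow libraries were the highest of each Th17 group. The deep Th17 libraries, 17896 to 19615 CPM, were still above the highest Th1 sum of 17061 CPM. The mean ratio of mitochondrially encoded to nuclear sums was 3.34 in Th17 KO, 3.42 in Th17 WT, 2.53 in Th1 KO and 2.49 in Th1 WT. The shallow libraries raised the Th17 means, at 3.83 in Th17 KO and 3.54 and 3.82 in Th17 WT. The deep libraries gave 2.96 and 3.25 in Th17 KO and 2.90 in Th17 WT, still above the highest Th1 sample at 2.56.

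**Figure D3:**
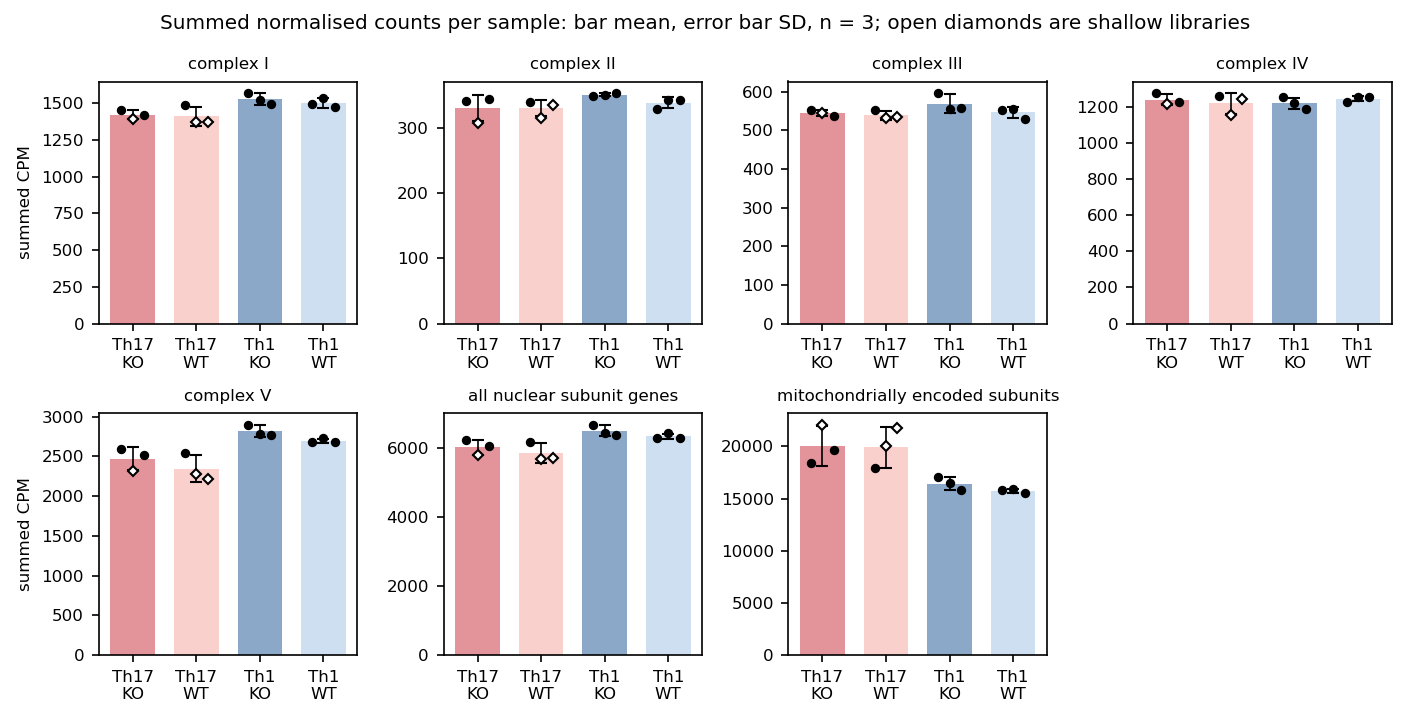
Summed TMM-normalised CPM per sample for complexes I to V, for all nuclear subunit genes and for the subunits encoded by mitochondrial DNA, in Th17 KO, Th17 WT, Th1 KO and Th1 WT. Complex V and the mitochondrially encoded sum separate Th17 from Th1 samples in opposite directions, with the shallow libraries farthest from Th1 in each Th17 group.

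Of the 13 mitochondrially encoded genes, 6 were higher and 1 lower in KO, and 6 higher and 0 lower in WT. Among all genes 26.9% were higher and 26.7% lower in KO, and 23.5% and 23.6% in WT, or 53.6% and 47.1% in either direction. The lower gene was mt-Nd3, at a log2 fold change of -0.22 (edgeR, adjusted p = 0.00412) in KO, and no mt-Nd gene was called higher in either genotype. Called higher in both were mt-Co1, mt-Co2 and mt-Co3, the core of complex IV, mt-Atp6 and mt-Atp8 of complex V, and mt-Cytb of complex III. The log2 fold change of mt-Co1 was 0.36 ± 0.08 (SE, adjusted p = 0.000499) in KO and 0.39 ± 0.08 (SE, adjusted p = 0.000269) in WT, and that of mt-Co2 was 0.37 ± 0.07 (SE, adjusted p = 0.000158) and 0.34 ± 0.07 (SE, adjusted p = 0.000439). Some of these rested on shallow libraries. Without all 3 of them mt-Co3 turned to -0.021 in WT, where mt-Atp8 was 0.14, mt-Co2 0.19, mt-Atp6 0.23 and mt-Cytb 0.27. Without Th17 KO 2, mt-Atp6 gave 0.09 and mt-Cytb 0.18 in KO, and mt-Co3 was no longer called there. In WT, mt-Atp8 gave 0.16 and mt-Co3 0.15 without Th17 WT 3, neither of them called; mt-Co3 was also lost there without Th17 WT 2, Th1 WT 1 or Th1 WT 3, and mt-Atp8 without Th1 WT 1 or Th1 WT 2. In KO the calls of mt-Atp6 and mt-Cytb were lost without most single libraries.

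Genes that act with the subunits were counted from lists, to be read against the 53.6% of all genes called in KO and 47.1% in WT. Of 48 tested assembly factors, 9 were higher and 7 lower in KO, and 5 were higher and 3 lower in WT. Sco1, which delivers copper to complex IV, had a log2 fold change of 1.43 ± 0.26 (SE, adjusted p = 0.00166) in KO and, in WT, of 1.502 ± 0.27 (SE, adjusted p = 0.0016), Ttc19, a complex III factor, 0.65 ± 0.16 (SE, adjusted p = 0.000995) and 1.27 ± 0.17 (SE, adjusted p = 5.96e-07), and Ndufaf4, a complex I factor, -0.48 ± 0.12 (SE, adjusted p = 0.00199) and -0.73 ± 0.15 (SE, adjusted p = 0.000207). Of 4 genes outside the symbol rule, cytochrome c1 (Cyc1) and cytochrome c (Cycs) were lower, at -0.65 ± 0.09 (SE, adjusted p = 4.68e-07) and -0.31 ± 0.08 (SE, adjusted p = 0.00131) in KO and -0.42 ± 0.09 (SE, adjusted p = 0.000576) and -0.45 ± 0.08 (SE, adjusted p = 4.43e-05) in WT, and Cycs was -0.20 in KO without Th17 KO 1. The ATP synthase inhibitor Atpif1 was higher, at 0.51 ± 0.09 (SE, adjusted p = 2.52e-05) in KO and 0.46 ± 0.09 (SE, adjusted p = 0.000277) in WT.

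Of 14 tested regulators of mitochondrial gene expression, 1 was higher and 4 lower in KO, and 1 was higher and 5 lower in WT. Among all genes 53.6% were called in KO and 47.1% in WT. Nrf1, a transcription factor for many subunit genes, gave -0.53 ± 0.09 (SE, adjusted p = 1.26e-05) in KO and -0.42 ± 0.09 (SE, adjusted p = 0.000485) in WT, and its coactivator Pprc1 gave -0.56 ± 0.12 (SE, adjusted p = 0.000367) and -0.47 ± 0.13 (SE, adjusted p = 0.00504), the WT call being lost without Th17 WT 1. Tfb2m, a mitochondrial transcription factor, was higher at 0.54 ± 0.13 (SE, adjusted p = 0.00132) in KO and 0.41 ± 0.16 (SE, adjusted p = 0.0308) in WT, where the value was 0.09 without Th17 WT 1 and the call was also lost without Th1 WT 1 or Th1 WT 2. Of 13 citrate cycle genes, 1 was higher and 3 lower in KO, and 2 were higher and 3 lower in WT, to be read against the same shares of all genes. Idh3a, a subunit of isocitrate dehydrogenase, was lower at -0.36 ± 0.08 (SE, adjusted p = 0.000779) in KO and -0.41 ± 0.09 (SE, adjusted p = 0.00077) in WT.

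By edgeR's test as set here, no subunit gene passed for genotype in either culture. In Th17 KO against Th17 WT, edgeR's quasi-likelihood test called 0 of 78 members, against a background of 5.83% of all genes (1.81% higher and 4.02% lower). There were 4 members at an unadjusted p under 0.05, and DESeq2 and limma-voom called 0. In Th1 KO against Th1 WT it also called 0 of 78, against a background of 4.61% (1.69% higher and 2.92% lower), with 4 members at an unadjusted p under 0.05, 0 called by DESeq2 and 1 by limma-voom. By edgeR 1 was called there under upper-quartile scaling or without the 3 shallow libraries, and 2 with the fit restricted to both Th1 groups. With KO and WT libraries of adjacent codes paired as a block, more members were called in Th1 than under any of these settings, as given in the last section. The median log2 fold change was 0.01 in Th17, with 44 members positive and 34 negative, and 0.03 in Th1, with 45 positive and 33 negative. The 95% confidence interval lay within a 1.5-fold change in either direction for 75 of 78 members in Th17, all but Ndufa4, Cox6b2 and Atp5s, and for 76 in Th1, all but Cox6b2 and Atp5s.

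**Figure D4:**
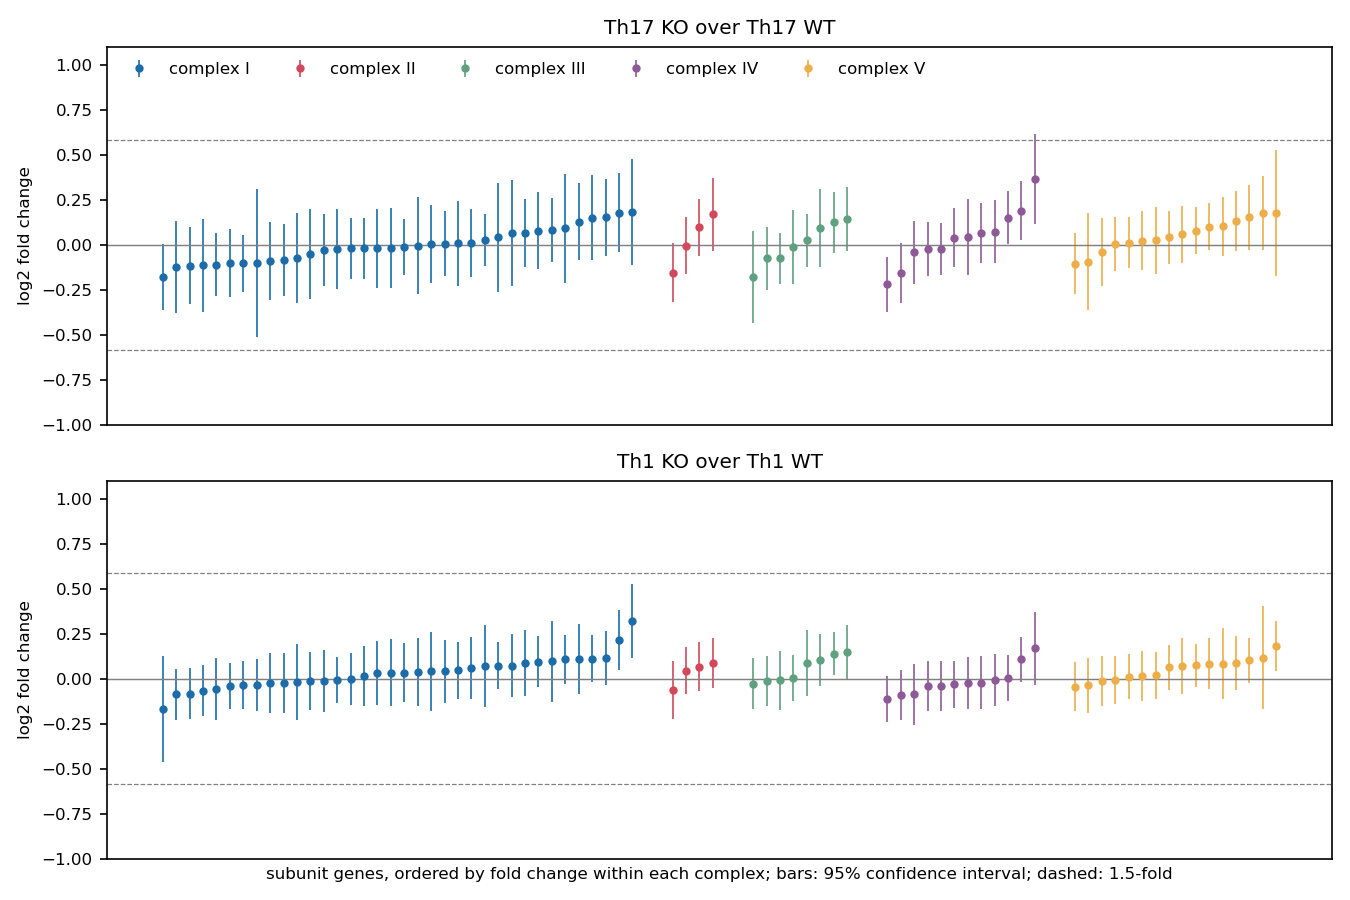
Log2 fold change of each tested subunit gene with its 95% confidence interval, Th17 KO over Th17 WT above and Th1 KO over Th1 WT below; dashed lines mark a 1.5-fold change, and Cox6b2 and Atp5s are left out for their low counts. The intervals lie within the lines apart from that of Ndufa4 in Th17.

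The member of smallest p in Th17 was Ndufa4, whose values are given above. The log2 fold change in Th17 KO over Th17 WT was 0.37 ± 0.12 (SE, adjusted p = 0.0784), with a 95% confidence interval of 0.12 to 0.62, and the ranges overlapped. It passed the threshold without Th17 KO 2 and with no filter on low counts, and was 0.23 without Th17 KO 3. The member of smallest p in Th1 was Ndufa5, an accessory subunit of complex I, measured at 23.2, 21.3 and 23 CPM in Th1 KO and 17.7, 19 and 17.3 CPM in Th1 WT. All KO samples were above all WT samples, and the log2 fold change was 0.32 ± 0.10 (SE, adjusted p = 0.0696); it passed without Th17 KO 2, without Th17 KO 3 and without all 3 shallow libraries. KO and WT ranges were apart in few members. All KO samples were above for 4 members and below for 3 in Th17, against 8.94% and 9.59% of all genes, and above for 11 and below for 2 in Th1, against 11.1% and 13.4%.

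Averaged over both cultures, 1 member was higher in KO and 0 lower by edgeR, against a background of 9.83% of all genes (3.19% higher and 6.64% lower). This was Ndufa4 at 0.27 ± 0.08 (SE, adjusted p = 0.0278), a call lost under DESeq2, under limma-voom and without Th17 WT 1, Th17 WT 2, Th17 KO 3, Th1 KO 1, Th1 KO 3, Th1 WT 1 or Th1 WT 3. A total of 9 members had an unadjusted p under 0.05, and DESeq2 and limma-voom called 0. The next by p were Atp5g1 at 0.17 ± 0.06 (SE, adjusted p = 0.0567), Cox7b, a small subunit of complex IV, at 0.13 ± 0.05 (SE, adjusted p = 0.0797), and Cox5a at -0.12 ± 0.05 (SE, adjusted p = 0.161). Cox7b was measured at 111, 101 and 105 CPM in Th17 KO and 96.8, 97.7 and 91.4 CPM in Th17 WT. In Th1, Cox7b was at 104, 102 and 96.7 CPM in KO and 89.6, 96.5 and 94.6 CPM in WT, with KO above WT in all samples of either culture. Atp5g1 passed without Th17 WT 2 and without Th1 WT 2, and both Atp5g1 and Cox7b passed under upper-quartile scaling. With the block by library code, described in the last section, more members were called higher in KO and Cox5a was called lower.

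The difference between the genotype effects of the cultures was called for 0 of 78 members by edgeR, against a background of 0.591% of all genes (0.115% higher and 0.476% lower), with 1 member at an unadjusted p under 0.05. The smallest p belonged to Cox6a1, the ubiquitous form of a complex IV subunit. Its values were 94, 90.3 and 84.8 CPM in Th17 KO and 100.1, 102 and 119 CPM in Th17 WT. In Th1, Cox6a1 was at 108, 107 and 103 CPM in KO and 106, 105 and 106 CPM in WT. In Th17 the KO samples were below the WT samples and in Th1 the ranges overlapped, and the difference of the effects was -0.23 ± 0.10 (SE, adjusted p = 0.428). Of the 48 tested assembly factors, 1 was called in the genotype average, the complex V factor Atpaf2, higher in KO at 0.24 ± 0.08 (SE, adjusted p = 0.0446), a call lost in 13 alternatives.

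Levels of different members are compared per kilobase of exon. The mean over the 12 samples was 1.55 CPM per kilobase for Ndufb2 to 71.7 for Ndufa2 in complex I (median 22.1), 13.2 for Sdhc to 73.7 for Sdhd in complex II (median 33.6), 14.6 for Uqcrq to 91.4 for Uqcrh in complex III (median 55.0), 0.705 for Cox6b2 to 195 for Cox8a in complex IV (median 81.4) and 0.640 for Atp5s to 182 for Atp5b in complex V (median 49.2). Medians are over tested members. With the longest transcript in place of all exon bases, the highest was Ndufb9 in complex I and Cox4i1 in complex IV.

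**Figure D5:**
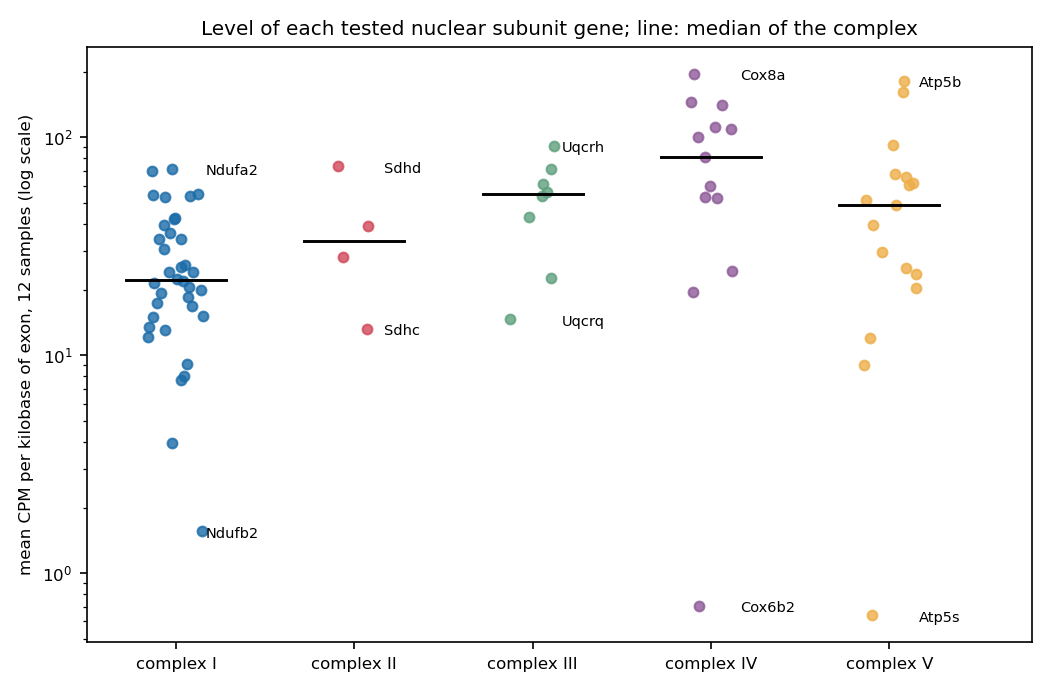
Mean CPM per kilobase of exon over the 12 samples for each tested subunit gene, by complex, on a log axis; the line marks the median. Complex IV has the highest median, 81.4, and complex I the lowest, 22.1.

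Several complex IV subunits exist as a widely expressed gene and a gene known for heart, muscle, lung or testis, and the T cells had nearly all counts in the widely expressed one. Cox4i1 was at 115 ± 10.1 in Th17 KO, 99.6 ± 15.2 in Th17 WT, 109.9 ± 1.03 in Th1 KO and 112 ± 0.654 in Th1 WT (CPM per kilobase, SD, n = 3 each), whereas its lung form Cox4i2 had 0 counts in Th17 KO, 2 in Th17 WT, 0 in Th1 KO and 7 in Th1 WT. Cox8a was at 189 ± 18.4 in Th17 KO, 188 ± 4.3 in Th17 WT, 194 ± 5.85 in Th1 KO and 209.9 ± 10.5 in Th1 WT CPM per kilobase, and Cox8b and Cox8c had 0 counts in all 12 libraries, with a limit of 3 counts equal to 0.208 to 3.15 CPM by library depth. The heart and muscle forms Cox6a2 (0 counts in Th17 KO, 1 in Th17 WT, 1 in Th1 KO and 0 in Th1 WT) and Cox7a1 (22 counts in Th17 KO, 11 in Th17 WT, 14 in Th1 KO and 12 in Th1 WT) were also too low to be tested, as were Cox7b2 (0 counts in Th17 KO, 0 in Th17 WT, 1 in Th1 KO and 0 in Th1 WT) and Ndufa4l2 (1 count in Th17 KO, 0 in Th17 WT, 1 in Th1 KO and 0 in Th1 WT).

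Cox6b2, the testis form of Cox6b1, passed the filter at under 5 CPM in every group, with 45 counts in Th17 KO, 16 in Th17 WT, 12 in Th1 KO and 17 in Th1 WT, and was called higher in Th17 KO than in Th1 KO at 2.39 ± 0.60 (SE, adjusted p = 0.00174). It is counted among the 10 higher members in KO, but at these counts it may have passed the filter through the Th17 libraries alone. The call is therefore not taken as support for a difference. Cox6b1 itself was at 151 ± 15.4 in Th17 KO, 144 ± 11.2 in Th17 WT, 133 ± 4.21 in Th1 KO and 137 ± 2.87 in Th1 WT CPM per kilobase. The 3 genes for the c subunit of complex V encode the same mature protein. Atp5g3 was the highest at 47.6 ± 5.42 in Th17 KO, 43.2 ± 4.8 in Th17 WT, 52.8 ± 1.49 in Th1 KO and 53.2 ± 1.33 in Th1 WT CPM per kilobase, Atp5g2 was at 25 ± 1.74 in Th17 KO, 23.8 ± 3.46 in Th17 WT, 23.3 ± 0.111 in Th1 KO and 21.9 ± 0.499 in Th1 WT, and Atp5g1 was the lowest at 11.5 ± 0.456 in Th17 KO, 9.79 ± 1.64 in Th17 WT, 14.2 ± 0.353 in Th1 KO and 12.6 ± 0.677 in Th1 WT. Their order was the same in all 4 groups, but 35.8% of the Atp5g2 windows also occur in other genes.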

How the data were processed

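Poly-A RNA of 12 samples, 3 in each of Th17 KO, Th17 WT, Th1 KO and Th1 WT, was made into cDNA with a SMART-Seq kit and sequenced from both ends, per the labels' protocols; that chemistry does not record strand. The submitters' processing notes name TopHat2, Bowtie2, featureCounts and GRCm38 (mm10); versions, strand setting and treatment of multiply matching reads were not stated there. What the authors deposited are raw, whole-number read counts for Ensembl IDs. Symbols and coordinates came from a GENCODE annotation of GRCm38, which named 37607 of 39179 IDs.

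Counts were normalised by TMM and filtered with filterByExpr over the 4 groups in edgeR 4.0.16, leaving 12189 genes. All were fitted together with a quasi-likelihood model with robust dispersion, and 6 comparisons (KO with WT in each culture, Th17 with Th1 in each genotype, the genotype average and the interaction) were adjusted by Benjamini-Hochberg over all genes, with a threshold of 0.05. Log2 fold changes are KO over WT or Th17 over Th1. Their standard error (SE) is the absolute log2 fold change divided by the square root of F; where a gene varied less than Poisson counts, edgeR's bound can make its p larger than the SE implies. CPM values use TMM library sizes; counts per gene and depth set their precision. Read sharing was counted over 75-base windows of exon sequence. In 16 of 85 members at least 10% of windows also occur in other genes, and these are uncertain. The 7 low members were kept out of tests. Some genes that are part of the counts are not reported here by name.

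Members were named by rule: among called members averaging 5 CPM or more, the 5 highest and 5 lowest fold changes, or the smallest p; up to 4 by p in the average and interaction; the highest and lowest level per complex; isoform sets; members called in both genotypes; and up to 3 of each related list. Other members are named because they belong to a count; all were chosen after earlier values were known. The members and lists were chosen with earlier results of these data known. Alternatives were RLE and upper-quartile scaling, DESeq2 1.42.0, voom in limma 3.58.1, no filter, only the groups compared, a block by library code, without the shallow libraries, without the dominant ID, and each sample left out. Replicates are numbered in order of deposit. The tests were checked on simulated counts. R 4.3.3, Python 3.11.15, pandas 2.3.3 and matplotlib 3.10.9 were used.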

Additional observations from a re-analysis of the deposited data

How the results depend on the processing

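The number of subunit genes higher in Th1 KO than in Th1 WT, 0 as reported, was 1 under upper-quartile scaling, limma-voom and without the 3 shallow libraries, 2 with only the groups compared and 3 with the replicate block, and 0 to 1 with each sample left out in turn. Higher in Th17 KO than in Th17 WT, 0 as reported, was 1 with no filter on low counts and 0 to 1 with each sample left out. In the average over both cultures, 1 higher became 3 under upper-quartile scaling, 0 under DESeq2 and limma-voom, 4 with the replicate block, which also gave 1 lower (Cox5a), and 0 to 2 with each sample left out. The 24 members lower in Th17 WT than in Th1 WT became 15 without the shallow libraries, and mt-Co3 there turned to a log2 fold change of -0.021 in place of 0.24. With each sample left out, Th17 WT over Th1 WT gave 7 to 10 higher and 19 to 27 lower, and Th17 KO over Th1 KO 9 to 11 higher and 23 to 27 lower. The cause of these shifts was not tested. Over all genes the calls numbered 562 in Th1 KO over Th1 WT (260 to 1315 over the alternatives), 711 in Th17 KO over Th17 WT (319 to 1117), 1198 in the average (864 to 1797) and 72 in the interaction (38 to 329), each highest with the replicate block.

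The block paired KO and WT libraries of adjacent codes. Deviations of paired libraries correlated at 0.136, 0.0287 and 0.166 in Th1 and at 0.226, 0.0259 and -0.0622 in Th17. In 4 pairs, all 3 Th1 pairs among them, the libraries correlated best with each other. These correlations cannot decide whether the codes pair the samples, because the deviations are taken from means of only 3 samples. The block was therefore kept as an alternative and not used in the main fit. No paired analysis was possible between Th17 and Th1 because they share no codes. Depth limits the low isoforms, and 3 of 6 Th17 libraries are shallow. Without them Th17 WT has 1 library, taken to vary as the samples of the remaining groups do. The limit of 3 counts covers counting error alone.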
